A study of Rattus norvegicus with 8 samples.

Results

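The growth hormone and insulin-like growth factor (IGF) axis was followed through 10 genes: the growth hormone receptor Ghr, the secreted hormone Igf1, its circulating partner Igfals, the feedback inhibitor Socs2, and the IGF-binding proteins Igfbp1, Igfbp2, Igfbp3, Igfbp4, Igfbp5 and Igfbp7. Every probe set whose only gene symbol in the platform annotation was one of these was taken, which gave 18 of the 31042 probe sets tested and a probe set for each of the 10 genes. Igfbp5 had 5 probe sets, Igf1 had 3, Ghr and Igfbp3 had 2 each, and the other 6 genes had 1. Where a gene had several, the one with the highest mean over the arrays is described first.

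Livers of male Wistar rats were profiled on 8 Affymetrix Rat2302 arrays of short DNA probes, 4 labelled vehicle and 4 labelled antiangiogenic treatment, here called treated. In all 8 rats cirrhosis had been induced with inhaled carbon tetrachloride (CCl4), a liver toxin, and the drinking water held 0.3 g/L phenobarbital, an inducer of drug-metabolizing enzymes. The series text calls the controls non-treated, whereas their labels say vehicle, and no source used here gives the compound, its dose or the ages of the rats beyond the words angiogenesis inhibitors. Values are log2 intensities after robust multi-array average (RMA) summarisation, differences are treated minus vehicle on that scale, and values after ± are SDs over 4 arrays.

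Growth hormone binds its receptor on hepatocytes, which activates the kinase JAK2 and the transcription factor STAT5, and STAT5 drives Igf1, Igfals and Socs2. Most circulating IGF-1 comes from the liver and travels in a complex with IGFBP-3 and the acid-labile subunit encoded by Igfals, while the smaller IGF-binding proteins hold part of the remainder and are regulated by nutrition, insulin and stress. Chronic liver disease is known for low circulating IGF-1 with growth hormone resistance.

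The arrays may not all be independent, which was not tested. Vehicle 4 and treated 3 were nearly identical, with r = 0.996 across probe sets and 0 of 9235 bright probe sets (mean above 7) more than 2-fold apart, against 245 to 1627 in every other pairing of arrays. The arrays were clustered by their BioB and BioC spike-in controls into 3 groups, a number set beforehand. These are called hybridization groups here, but they were inferred and not taken from the labels. Each held as many vehicle as treated arrays. Vehicle 1 and treated 1 formed group 1, vehicle 4 and treated 3 group 3, and the remaining 4 arrays group 2. A difference within group 1 or 3 is thus 1 array against 1 array, and in group 3 it compares the near-identical arrays. The log2 ratio of 3′ to 5′ Gapdh control signal lay between 0.186 and 0.414 in vehicle and between 0.133 and 0.404 in treated livers. The tissue label was borne out by 18 measured hepatocyte markers, whose mean was 13.14 ± 0.07 in vehicle and 13.13 ± 0.10 in treated livers, while 9 of 13 markers of pancreas, adrenal gland and skeletal muscle had a mean no higher than the 25th percentile of the arrays. Of all 13, the 3 with the smallest p were the pancreatic genes Prss1, Cpa1 and Cela1, which differed by 0.22, 0.18 and 0.49.

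Promoter sequences were compared first because Igfbp1 varied more across the arrays than any other member and is a classical target of insulin, which acts through forkhead (FOXO) transcription factors at an insulin response element. That spread rests on treated 1, at 8.40 against 12.48 to 13.66 on the other arrays. RefSeq promoters (250 bases before to 50 after the annotated start, GRCr8) were matched for 9 of the 10 genes, and Socs2 had no entry. The forkhead core CAAAANAA, searched on both strands, was present in 2 of these 9 promoters, Igfbp1 (chr14:86261027-86261326, plus strand) and Igf1 (chr7:24172282-24172581, plus strand), shown here with the matches in capitals.
Igfbp1: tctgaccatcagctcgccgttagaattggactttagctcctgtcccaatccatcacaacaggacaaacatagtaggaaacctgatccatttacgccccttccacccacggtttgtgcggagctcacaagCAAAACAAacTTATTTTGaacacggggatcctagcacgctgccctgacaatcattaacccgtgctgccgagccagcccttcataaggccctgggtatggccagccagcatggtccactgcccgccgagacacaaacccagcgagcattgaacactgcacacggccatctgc
Igf1: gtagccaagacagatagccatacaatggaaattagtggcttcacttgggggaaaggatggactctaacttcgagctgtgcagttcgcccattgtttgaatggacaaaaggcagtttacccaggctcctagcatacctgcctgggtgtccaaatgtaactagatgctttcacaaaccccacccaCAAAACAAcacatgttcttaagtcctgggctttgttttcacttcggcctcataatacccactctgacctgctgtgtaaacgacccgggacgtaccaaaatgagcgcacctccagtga
In Igfbp1 the core occurred on each strand, in matches that began 121 and 111 bases before the start and did not overlap. At least 1 match was found in 8.52% of 33469 promoters of this length, and 2 or more in 0.786%. The core was chosen because Igfbp1 is a known target, so its matches there are no test and these shares do not measure their rarity. The STAT5 motif TTCNNNGAA, which reads the same on both strands, was found in 0 of the 9 promoters and in 8.87% of all promoters. These matches describe the letters of this window and were not measured as binding sites.

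No member passed the test for a difference between treated and vehicle livers. Of the 18 probe sets, 0 passed an adjusted p of 0.05 (limma, Benjamini-Hochberg over all probe sets) and 0 had an unadjusted p under 0.05, against 0.0% and 3.93% of all 31042 probe sets. The groups overlapped at every member probe set (0 of 18 without overlap, 1.67% of all). By the brightest probe set of each gene, 5 genes were higher and 5 lower, with a median difference of −0.034 beside 0.0061 over 14217 genes, of which 51.6% were higher and 48.4% lower. Of the 10 genes, 4 had group means at least 1.5-fold apart, against 6.68% of all genes: Igfbp1, Igfbp2, Igfbp5 and Igfbp7, all lower in treated livers. This count was 2 without treated 1 (Igfbp2 and Igfbp7) or without vehicle 1 (Igfbp1 and Igfbp7), and 6 without treated 4. With the mean of a gene's probe sets it was 3, without Igfbp5 (−0.15). The 4 probe sets had SDs over the arrays above those of 95.2% to 99.8% of all probe sets. The share over all genes, most of which vary less, is therefore not a like background for them. The 95% intervals of all 18 differences included 0, so a change of the size of those intervals was not excluded.

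**Figure D1:**
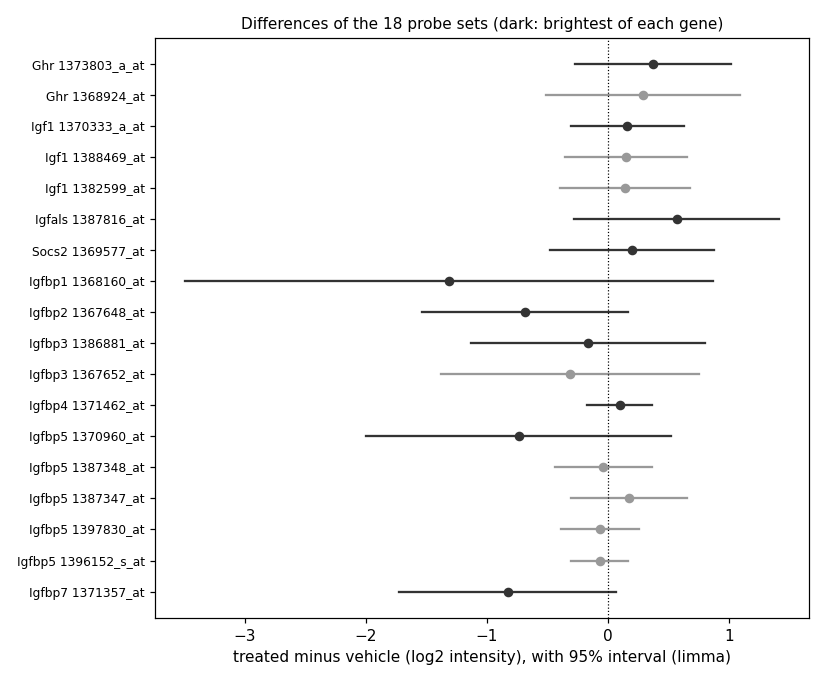
Treated minus vehicle difference of each of the 18 probe sets on the log2 scale (points) with its 95% interval from limma (lines), dark for the brightest probe set of a gene. Every interval crosses 0, and that of Igfbp1 is the widest, from −3.50 to 0.87.

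Ghr, the receptor, had most of its higher values on treated arrays. Its brighter probe set (1373803_a_at) came to 10.15, 10.56, 9.99 and 10.81 across vehicle arrays 1 to 4, against 11.01, 11.19, 10.87 and 9.95 across treated arrays 1 to 4. Treated 1 to 3 lay above every vehicle array, and treated 4 lay below all of them. Vehicle livers averaged 10.38 ± 0.37 and treated livers 10.75 ± 0.55, which differed by 0.37 with a 95% interval from −0.27 to 1.02 (limma adjusted p = 0.979). Without treated 4 the difference was 0.64 (limma adjusted p = 0.515, unadjusted 0.0151), and without treated 2 it was 0.23. The other probe set (1368924_at) ranged from 8.29 to 9.32 in vehicle and from 8.37 to 9.96 in treated livers, and differed by 0.29.

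Igf1, the hormone made by hepatocytes under growth hormone, gave similar values in both groups. Its brightest probe set (1370333_a_at) came to 13.20, 12.87, 12.31 and 12.99 across vehicle arrays 1 to 4, against 13.20, 13.18, 12.99 and 12.63 across treated arrays 1 to 4. Vehicle 3 was lowest and treated 4 the next lowest, and the groups covered nearly the same range. The difference was 0.16 with a 95% interval from −0.31 to 0.63 (limma adjusted p = 0.979), and it was −0.017 without vehicle 3. The other probe sets gave 0.15 (1388469_at) and 0.14 (1382599_at). All 3 followed the same order of arrays closely, with r between 0.923 and 0.974 over the 8 arrays, a description that the near-identical arrays share.

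Igfals encodes the acid-labile subunit that stabilises IGF-1 in blood. Its probe set (1387816_at) came to 8.89, 9.52, 8.66 and 9.91 across vehicle arrays 1 to 4, against 10.71, 9.51, 9.92 and 9.11 across treated arrays 1 to 4. Treated 1 stood above all others and vehicle 3 below. The difference of 0.57 (−0.28 to 1.41, limma adjusted p = 0.979) was the largest positive one among the members, and was 0.27 without treated 1 and 0.37 without vehicle 3. Hybridization groups 1, 2 and 3 gave 1.82, 0.22 and 0.01, group 3 being the near-identical arrays.

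Socs2, a STAT5 target that damps growth hormone signalling, gave overlapping values in both groups. It came to 3.86, 4.32, 3.63 and 4.82 across vehicle arrays 1 to 4, against 4.34, 4.26, 4.96 and 3.85 across treated arrays 1 to 4 (1369577_at), and 1 of these 8 values was no higher than the 25th percentile of its array. The highest values fell on the near-identical vehicle 4 and treated 3. The difference was 0.20 (−0.48 to 0.87, limma adjusted p = 0.981), 0.42 without vehicle 4, and −0.0053 without treated 3. The SDs were 0.53 in vehicle and 0.46 in treated livers.

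**Figure D2:**
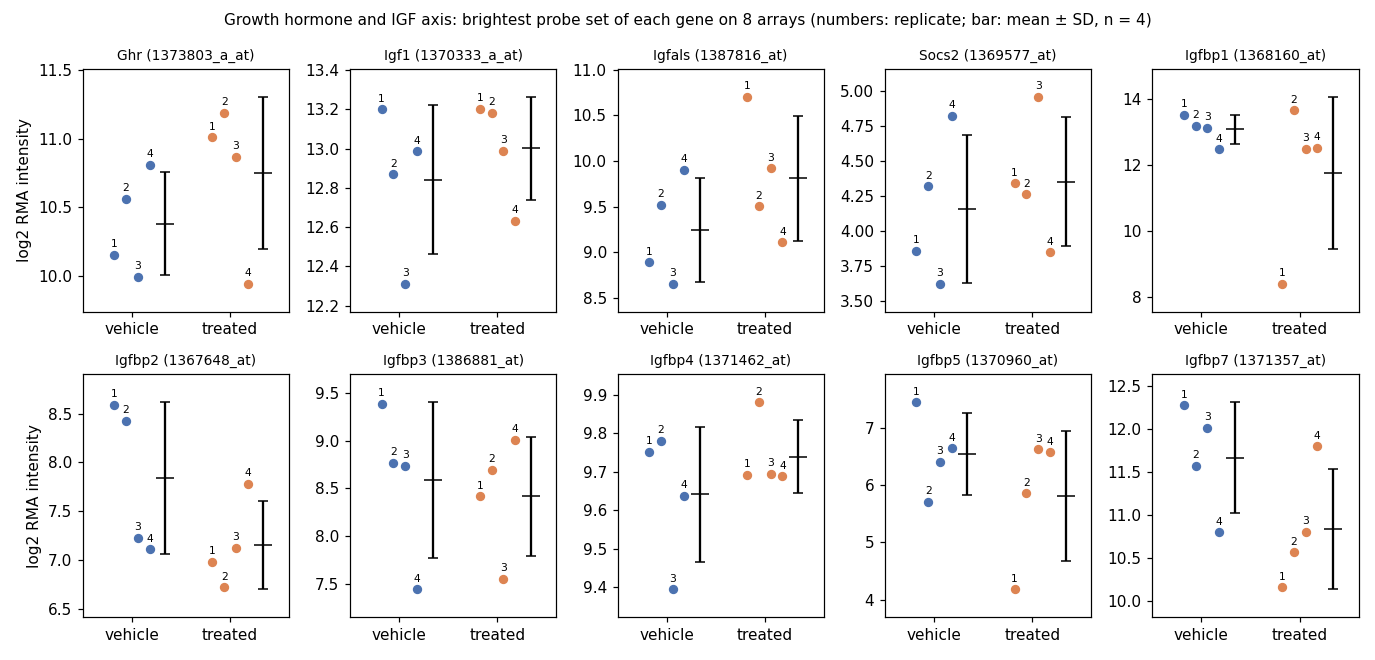
Log2 RMA intensity of the brightest probe set of each of the 10 genes on the 4 vehicle (blue) and 4 treated (orange) arrays, with the replicate number over each point and the group mean ± SD as a black bar; the vertical axes differ between panels and do not start at 0. Igfbp1 on treated 1 (8.40) stands 4.08 below the lowest of the other 7 arrays, and treated 4 lies among the vehicle arrays for Igfbp2 and Igfbp7.

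Igfbp1, a hepatocyte protein that insulin suppresses and that stress and fasting induce, stood far lower on a single array than elsewhere. It came to 13.51, 13.19, 13.13 and 12.48 across vehicle arrays 1 to 4, against 8.40, 13.66, 12.49 and 12.52 across treated arrays 1 to 4 (1368160_at). Treated 1 lay far below all other arrays, while the other 3 treated arrays covered nearly the same range as vehicle. The group means were 13.08 ± 0.43 and 11.77 ± 2.31, 2.49-fold apart, and the difference of −1.31 (−3.50 to 0.87, limma adjusted p = 0.979) became −0.19 without treated 1. Its range over the 8 arrays, 5.26, ranked 33 of 31042 probe sets.

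Few transcripts stood as far below the other arrays on treated 1 as Igfbp1. Ranked by the distance from treated 1 down to the lowest of the other 7 arrays, Igfbp1 (4.08) was number 2 of 31042 probe sets. Fos, an immediate early transcription factor, was number 1 (4.12). Dusp1, a stress-induced phosphatase, was number 3 (3.91), Egr1, an immediate early transcription factor, number 5 (3.43), and Myc, a growth-related transcription factor, number 12 (2.51). These 4 genes were chosen after their values were seen. Rgs1 (2.95), Pvr (2.79), Phgdh (2.71) and Chac1 (2.66), at numbers 7, 9, 10 and 11, lay between Egr1 and Myc. Fos read 2.95 on treated 1 and between 7.07 and 9.27 on the other arrays, and Egr1 read 7.19 against 10.62 to 12.41. The Fos value on treated 1 lay below the 25th percentile of that array (3.84).

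Other genes that insulin lowers in liver were also lowest on treated 1, in values picked out after the Igfbp1 result. Irs2, an insulin receptor substrate, read 6.73 there and 7.68 to 9.63 elsewhere. Pck1, the rate-limiting enzyme of gluconeogenesis, read 12.10 there and 13.33 to 13.57 elsewhere. Tat, the aminotransferase that degrades tyrosine, read 9.87 there and 10.70 to 11.91 elsewhere. Srebf1, a lipogenic transcription factor that insulin raises, was highest on treated 1, at 11.19 against 8.89 to 10.08. The other genes of these lists were mixed. Ppargc1a, Pdk4 and Insig2, also lowered by insulin, had their lowest values on other arrays. Of the lipogenic genes raised by insulin, Fasn (11.34) and Acly (11.17) were highest on treated 1, and Acaca, Scd and Pnpla3 were highest elsewhere. On treated 1, 151 probe sets lay at least 2-fold below all other arrays and 99 at least 2-fold above them, against 0 to 30 and 0 to 107 on the other arrays. The part of feeding state, sampling or array in these values was not tested.

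**Figure D3:**
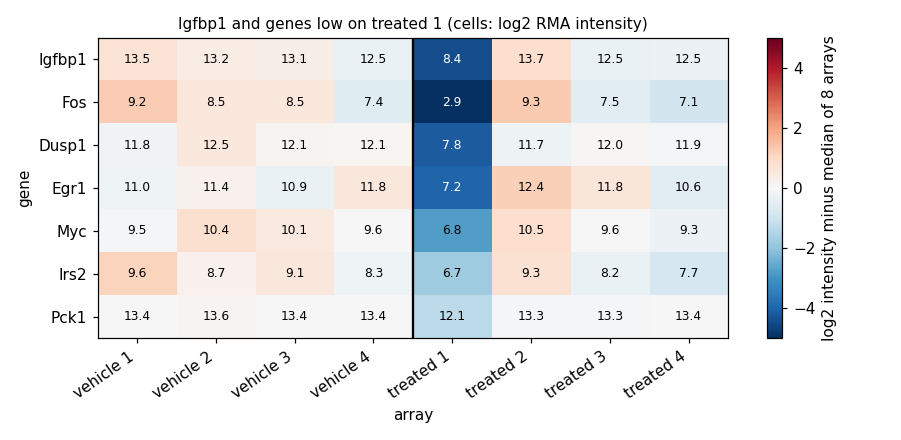
Log2 RMA intensity (printed in each cell) of Igfbp1 and 6 genes named with it on the 8 arrays, coloured by the difference from the gene's median over the arrays; the vertical line separates vehicle from treated. All 7 genes have their lowest value on treated 1, 8.40 for Igfbp1 and 2.95 for Fos. The 6 genes beside Igfbp1 were picked after their values were seen, so this is no test. Ppargc1a, Pdk4 and Insig2, also lowered by insulin but lowest on other arrays, are not shown.

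The gene next to Igfbp1 in the annotation, Igfbp3, did not share this drop. Igfbp3, the main carrier of IGF-1 in blood, is made in liver largely by non-parenchymal cells, and 0 annotated genes separate it from Igfbp1 in GRCr8. Its brighter probe set (1386881_at) came to 9.38, 8.77, 8.74 and 7.45 across vehicle arrays 1 to 4, against 8.42, 8.69, 7.56 and 9.005 across treated arrays 1 to 4. The lowest values were on the near-identical vehicle 4 and treated 3. The difference was −0.17 (−1.13 to 0.80, limma adjusted p = 0.993), and it was 0.10 without vehicle 1 and 0.12 without treated 3. The other probe set (1367652_at) differed by −0.32, and on the near-identical arrays it read 7.52 and 7.12.

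Igfbp2, a binding protein of hepatocytes and of fetal and regenerating liver, was lower by 0.69 in treated livers (−1.54 to 0.17, limma adjusted p = 0.979). It came to 8.59, 8.42, 7.23 and 7.11 across vehicle arrays 1 to 4, against 6.98, 6.72, 7.12 and 7.78 across treated arrays 1 to 4 (1367648_at). Treated 1 and 2 lay below all vehicle arrays, treated 3 matched vehicle 4, and treated 4 lay within the vehicle range. Over the 13 alternatives that could change the difference it lay between −0.93 without vehicle 4 and −0.44 without vehicle 1. Hybridization groups 1, 2 and 3 gave −1.61, −0.58 and 0.02, group 3 being the near-identical arrays.

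Igfbp4, an inhibitor of IGF action made by many liver cells, varied least of the 10 genes. It came to 9.75, 9.78, 9.39 and 9.64 across vehicle arrays 1 to 4, against 9.69, 9.88, 9.70 and 9.69 across treated arrays 1 to 4 (1371462_at). Its SD over the 8 arrays, 0.14, was larger than that of only 17.1% of probe sets, and 3 of the treated arrays lay within 0.01 of each other. The difference was 0.10 with a 95% interval from −0.17 to 0.37 (limma adjusted p = 0.979). It was 0.016 without vehicle 3, 0.051 without treated 2, 0.15 with median centring and 0.059 with quantile normalization.

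Igfbp5, a binding protein of stellate and other mesenchymal cells that neighbours Igfbp2 in the annotation with 0 genes between, was measured by 5 probe sets that did not follow each other. The brightest (1370960_at) came to 7.44, 5.70, 6.40 and 6.64 across vehicle arrays 1 to 4, against 4.18, 5.85, 6.62 and 6.57 across treated arrays 1 to 4. Treated 1 was again lowest, and the other treated arrays lay within the vehicle range. The difference of −0.74 (−1.998 to 0.52, limma adjusted p = 0.979) became −0.20 without treated 1, −0.44 without vehicle 1 and −0.15 with the mean of the 5 probe sets. The 4 other probe sets differed by 0.18 (1387347_at), −0.04 (1387348_at), −0.06 (1397830_at) and −0.07 (1396152_s_at). Correlations of the brightest with them over the 8 arrays ran from −0.43 to 0.63. Of the 5, 1396152_s_at, whose suffix marks probes shared between transcripts, lay at or below the 25th percentile on all 8 arrays. On treated 1 these 4 read 5.85, 5.30, 3.83 and 3.33, so the low value of the brightest probe set was not seen at this size in the others.

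Igfbp7, a secreted protein of vessels and activated stellate cells that binds IGFs weakly, had the smallest p of the members. It came to 12.27, 11.57, 12.01 and 10.80 across vehicle arrays 1 to 4, against 10.16, 10.57, 10.80 and 11.80 across treated arrays 1 to 4 (1371357_at). Treated 1 and 2 were the lowest of all, vehicle 4 and treated 3 stood at the same level, and treated 4 lay among the vehicle arrays. The means were 11.66 ± 0.64 and 10.83 ± 0.70, 1.78-fold apart, with a difference of −0.83 (−1.73 to 0.07, unadjusted p = 0.0663, limma adjusted p = 0.979). This p ranked 1745 among the 31042 probe sets. Over the 13 alternatives that could change it, the difference lay between −1.15 without treated 4 and −0.60 without treated 1. Without both near-identical arrays it was −1.11 (unadjusted p = 0.0360, limma adjusted p = 0.751). Hybridization groups 1, 2 and 3 gave −2.11, −0.61 and 0.01, group 3 being the near-identical arrays.

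Igfbp7 followed the stellate cell markers from array to array. With the near-identical arrays averaged to 1 value, Igfbp7 and the mean of 20 stellate cell and myofibroblast genes gave r = 0.976 (exact permutation p = 0.000397, n = 7, two-sided) and rho = 1.0 (exact permutation p = 0.000397). Both p-values were 0.0198 after Benjamini-Hochberg adjustment over 50 relations of the 10 members with 5 marker lists, which were chosen after seeing the data. Without the 2 arrays farthest from the median, treated 1 and 2, r was 0.941. The permutations took vehicle and treated arrays together. Both measures were high on vehicle 1 to 3 and treated 4 (Igfbp7 11.57 to 12.27, marker mean 7.95 to 8.73). On the other arrays both were lower (10.16 to 10.80 and 7.21 to 7.73). The part of this split in the relation was not tested. No other relation passed (smallest adjusted p = 0.0595, Ghr with bile duct markers, r = −0.953). Igfbp7 also ran with the other lists of non-hepatocyte cells, none past the adjusted threshold. It gave r = 0.908 with the bile duct markers (exact permutation p = 0.00655, adjusted 0.0723, n = 7; rho = 0.893, adjusted 0.142; r = 0.716 without treated 1 and 2). With the macrophage and leukocyte markers r was 0.859 (exact permutation p = 0.0153, adjusted 0.0955, n = 7; rho = 0.821, adjusted 0.142; r = 0.884 without those arrays). With the endothelial markers r was 0.818 (exact permutation p = 0.0456, adjusted 0.163, n = 7; rho = 0.964, adjusted 0.0694; r = 0.701 without those arrays). With the hepatocyte markers r was 0.219 (exact permutation p = 0.627, adjusted 0.667, n = 7; rho = 0.107, adjusted 0.875; r = 0.301 without those arrays). Whether these relations differ from each other was not tested. On treated 4 Igfbp7 was high (11.80), whereas the endothelial mean was 6.87. That mean was 7.63 to 7.77 on vehicle 1 to 3 and 6.70 to 6.83 on the other arrays.

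**Figure D4:**
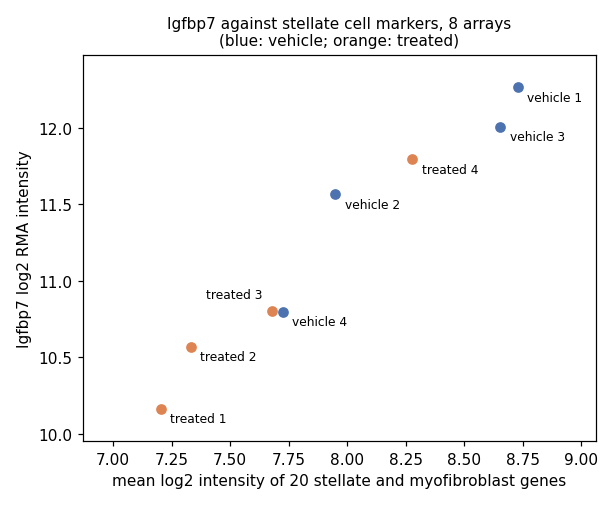
Log2 RMA intensity of Igfbp7 (vertical axis) against the mean log2 intensity of 20 stellate cell and myofibroblast genes (horizontal axis) on each of the 8 arrays, vehicle in blue and treated in orange; neither axis starts at 0. The points rise together from treated 1 (10.16) to vehicle 1 (12.27), and treated 4 lies between vehicle 2 and vehicle 3.

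Most stellate and endothelial markers were lower in treated livers. So were Igfbp1, Igfbp2, Igfbp3, Igfbp5 and Igfbp7 by the brightest probe set of each gene. Without treated 1 the differences of Igfbp1 and Igfbp5 were −0.19 and −0.20. Of 20 stellate and myofibroblast genes 18 were lower in treated livers (48.4% of all genes were), with a median difference of −0.70 and 0 passing the adjusted threshold. At an unadjusted p under 0.05, which 2.8% of all genes passed as lower and 1.95% as higher, 4 were lower: Acta2, Tagln, Sparc and Thy1. Their summed level (log2 of the summed intensities) ran from 13.15 to 14.49 in vehicle and from 12.58 to 13.99 in treated livers, and 1 of the 20 averaged at or below the 25th percentile. Of 18 endothelial genes 18 were lower, with a median of −0.59 and summed levels of 11.69 to 12.59 against 11.40 to 11.68. At an unadjusted p under 0.05, 9 were lower: Tek, Emcn, Cldn5, Stab2, Lyve1, Fcgr2b, Ptprb, Sox17 and Sox18. Of 9 bile duct genes 7 were lower (median −0.29), with summed levels of 10.67 to 11.43 in vehicle and 9.68 to 11.89 in treated livers, and the 3 with the smallest p differed by −0.60 (Cftr), −0.61 (Anxa3) and −0.34 (Krt19). Of 18 macrophage and leukocyte genes 12 were lower (median −0.29), with summed levels of 12.52 to 13.57 and 12.53 to 13.04. At an unadjusted p under 0.05, 4 of them were lower: Cd3e, Cd4, Cpa3 and Cma1. Of 18 hepatocyte genes 7 were higher and 11 lower (median −0.03), with summed levels of 17.68 to 17.77 and 17.62 to 17.78, and the asialoglycoprotein receptor chains Asgr1 (0.57) and Asgr2 (0.62) were higher at an unadjusted p under 0.05, while Apoa1, of high-density lipoprotein, differed by −0.64 with the next smallest p. The part of cell content in the values of the members was not tested, and in these bulk samples fewer cells of a type and less RNA per cell cannot be told apart. The medians of these lists varied with the arrays used. The stellate median was −0.46 without vehicle 3 and −0.95 without both near-identical arrays, with 18 of 20 lower in each case. The endothelial median was −0.47 without treated 2, where 17 of 18 were lower, and −0.78 without both near-identical arrays, where 18 of 18 were. The bile duct median lay between −0.12 and −0.17 without vehicle 1, vehicle 3, treated 1, treated 2 or treated 3, at −0.575 without treated 4 and at −0.44 without both near-identical arrays. The macrophage and leukocyte median was −0.13 without vehicle 1, −0.19 without vehicle 2 and −0.16 without treated 1. It was −0.60 with vehicle 4 left out, −0.53 with treated 2 left out and −0.50 with the near-identical arrays left out.

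The members also varied against each other. Of 45 member pairs over 7 values, 0 passed after Benjamini-Hochberg adjustment of the exact permutation p, 8 had an unadjusted p under 0.05 for r, and no pair had an adjusted p under 0.221. The smallest p belonged to Igfals and Igfbp7, which ran opposite to each other (r = −0.893, exact permutation p = 0.00516; rho = −0.857, exact permutation p = 0.0238; adjusted 0.221 and 0.307; n = 7). Without vehicle 3 and treated 1, r was −0.831. Ghr and Igfbp7 also ran opposite (r = −0.911, exact permutation p = 0.0121; rho = −0.821, exact permutation p = 0.0341; adjusted 0.221 and 0.307; n = 7), with r = −0.945 without treated 2 and 4. Ghr and Igf1, receptor and product, gave r = 0.700 (exact permutation p = 0.0859; rho = 0.679, exact permutation p = 0.110; adjusted 0.267 and 0.329; n = 7) and r = 0.592 without treated 2 and 4.

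Across the 10 genes, vehicle 1 to 4 lay within the treated range for 5, 9, 5 and 7, and treated 1 to 4 lay within the vehicle range for 3, 5, 7 and 9. Vehicle 4 and treated 3 are the near-identical arrays. Without both, the difference was 0.48 for Ghr, 0.21 for Igf1, 0.75 for Igfals, 0.22 for Socs2, −1.75 for Igfbp1 and −0.92 for Igfbp2. It was −0.26 for Igfbp3, 0.11 for Igfbp4 and −0.98 for Igfbp5. Each kept the sign it had with all arrays, and 0 passed the adjusted threshold.

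Among 8495 other genes with a mean of at least 6, those most like each member across the 8 arrays were listed by r as a description, since the arrays share normalization and a near-copy. Ghr was most like Slc17a2, a sodium-phosphate transporter (r = 0.980), and Rdh7, a retinol dehydrogenase (0.974). Igf1 was most like the kinases Ak4 (0.959) and Adk (0.958). Igfals was most like Alad, an enzyme of haem synthesis (0.986), and Rogdi (0.985), and Socs2 like Misp3 (0.983) and the small heat shock gene Hspb7 (0.978). Igfbp1 was most like the urea cycle gene Asl (0.992) and Fos (0.988). Like Igfbp1, both were lowest on treated 1 and highest on treated 2. Igfbp2 was most like the chemokine Ccl9 (0.962) and Qsox1 (0.961), and Igfbp3 like the ion transporter Slc12a2 (0.990) and Ythdc1 (0.989). Igfbp4 was most like Crtc2 (0.925) and the iron hormone gene Hamp (0.921), and Igfbp5 like the cell cycle inhibitor Cdkn1a (0.972) and the mitochondrial COX2 (0.959). Igfbp7 was most like the fibrillar collagen gene Col3a1 (0.996) and Arrb2 (0.995). Col3a1, a member of the stellate list, came to 13.16, 12.47, 13.05 and 11.82 across vehicle arrays 1 to 4, against 11.34, 11.58, 11.81 and 12.74 across treated arrays 1 to 4, in the same order as Igfbp7 except between vehicle 4 and treated 3.

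Of 47 other genes listed for the pathway, 44 were measured, of which 22 were higher and 22 lower in treated livers, with 0 past the adjusted threshold, 0 at an unadjusted p under 0.05 (4.75% of all genes) and a median of 0.0052. The 3 with the smallest p were Igfbp6, Irs2 and Sirpa. Igfbp6, a binding protein with a preference for IGF-2, came to 6.72, 6.27, 6.50 and 6.63 across vehicle arrays 1 to 4, against 7.22, 6.72, 6.86 and 6.61 across treated arrays 1 to 4, a difference of 0.32 (−0.04 to 0.68, limma adjusted p = 0.979). Irs2 differed by −0.97 (−2.10 to 0.16) and Sirpa, a myeloid receptor that recruits phosphatases, by −0.48 (−1.06 to 0.09). The kinase Jak2 differed by −0.06, Stat5a by −0.08 and Stat5b by −0.02. Cish, another STAT5-driven feedback inhibitor, ranged from 4.84 to 7.75 in vehicle and from 5.31 to 8.32 in treated livers and differed by 0.68 (−0.96 to 2.32). The IGF-1 receptor Igf1r, at 5.12 ± 0.25 and 4.99 ± 0.15, differed by −0.12.

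Growth hormone also sets the sex-dependent expression of many liver genes through the pattern of its secretion, and the male-predominant targets varied more across arrays than Igf1 did. Of 8 measured genes of that kind 7 were higher in treated livers (51.6% of all genes were), with a median difference of 1.08. Of the 8, 0 passed the adjusted threshold and 0 had an unadjusted p under 0.05 (4.75% of all genes). The median was 0.53 without vehicle 3 and 1.46 without both near-identical arrays, and 7 of 8 were higher in each case. Obp3, an odorant-binding protein of the alpha-2u-globulin family, came to 3.55, 3.69, 3.28 and 6.96 across vehicle arrays 1 to 4, against 7.88, 9.63, 7.23 and 3.72 across treated arrays 1 to 4 (difference 2.74, −0.06 to 5.55, limma adjusted p = 0.979). The Obp3 values on vehicle 1 to 3 and treated 4 lay below the 25th percentile of those arrays, so the size of its difference depends on that floor. Mup5, of the same urinary protein family, came to 4.66, 5.05, 4.31 and 9.93 across vehicle arrays 1 to 4, against 9.52, 9.97, 9.91 and 5.96 across treated arrays 1 to 4 (difference 2.85, −0.18 to 5.89). Vehicle 1 to 3 and treated 4 were low for both genes, and vehicle 4 and treated 1 to 3 were high. The labels were kept as given, and every treated minus vehicle difference here rests on them. Whether an array carries the label of the other group, or vehicle 4 and treated 3 come from 1 liver, was not tested. The probe sets of both genes carry a suffix for cross-hybridization, so members of this family cannot be told apart by them.

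Cyp2c11 and Cyp3a2 were likewise lower on vehicle 1 to 3 and treated 4 than on the other 4 arrays. Cyp2c11, the main male-specific cytochrome P450 of rat liver, came to 9.47, 8.44, 6.23 and 12.94 across vehicle arrays 1 to 4, against 12.98, 13.59, 12.89 and 7.82 across treated arrays 1 to 4. Cyp3a2 came to 12.53, 12.13, 10.02 and 13.38 across vehicle arrays 1 to 4, against 13.44, 13.85, 13.35 and 12.92 across treated arrays 1 to 4, a difference of 1.37 (−0.01 to 2.75, limma adjusted p = 0.979). Bcl6, a male-predominant repressor, was the exception to the direction, with a difference of −0.70 (−2.53 to 1.12). Ghr was likewise lower on vehicle 1 to 3 and treated 4 than on the other arrays, whereas Igf1 was as high on vehicle 1 (13.20) as on treated 1 (13.20).

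Of 6 measured female-predominant targets 3 were higher and 3 lower (median 0.14). The median was 0.025 without vehicle 1, 0.036 without treated 1 and 0.21 without treated 2, and 5 of 6 were higher without vehicle 3. The 3 with the smallest p were Cyp2c12, Cyp2a1 and Cux2. Cyp2c12, the female-specific cytochrome P450 of rat liver, came to 11.03, 12.40, 12.04 and 11.36 across vehicle arrays 1 to 4, against 7.96, 7.79, 11.40 and 11.83 across treated arrays 1 to 4. Treated 1 and 2 were low, and treated 3 and 4 lay within the vehicle range (difference −1.96, −4.05 to 0.13, limma adjusted p = 0.979). Cyp2a1 differed by 0.52 (−0.15 to 1.19) and Cux2, a transcription factor of female liver, by 0.28 (−0.21 to 0.77).

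**Figure D5:**
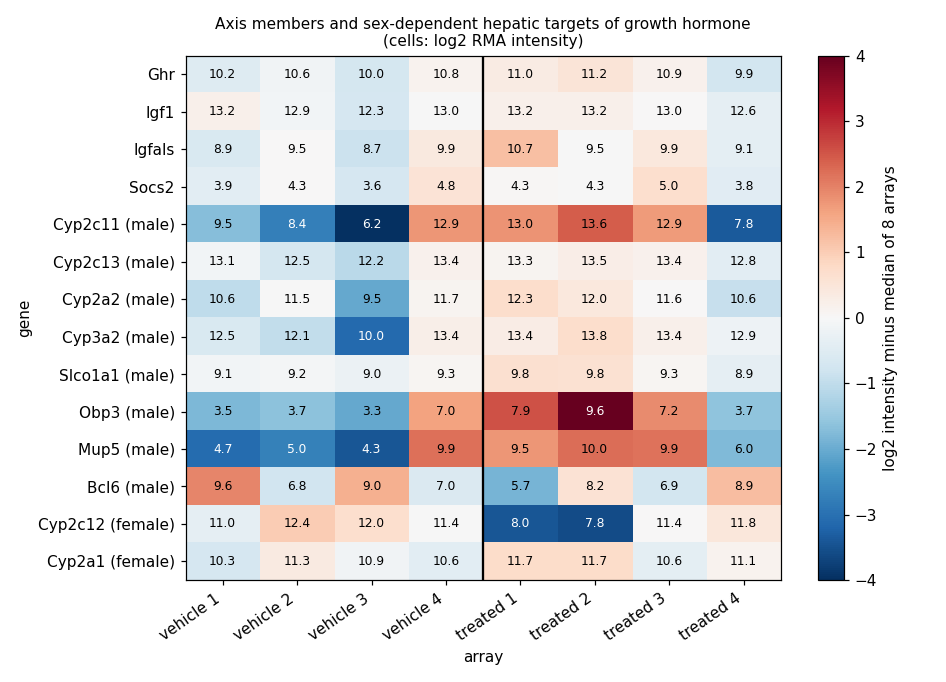
Log2 RMA intensity (printed in each cell) of 4 axis members and 10 sex-dependent targets of growth hormone on the 8 arrays, coloured by the difference from the gene's median over the arrays; the vertical line separates vehicle from treated. Cyp2c11, Obp3 and Mup5 are low on vehicle 1 to 3 and treated 4 and high on vehicle 4 and treated 1 to 3, and Cyp2c12 is low on treated 1 and 2.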

How the data were processed

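RNA of frozen cirrhotic liver was labelled as biotinylated cRNA from an oligo(dT) primer and hybridized to Rat2302 arrays, per the labels' protocols. The authors deposited log2 intensities made with affy and RMA, per the submitters' processing notes, without versions or settings. RMA moves small differences of dim probe sets towards 0. Of 31099 probe sets, 57 controls were left out, and 20826 of the remaining 31042 had 1 gene symbol (436 several, 9780 none). The number of arrays (4 per group, grouped by title) limits the precision. The series text speaks of 4 rats per group, and p-values measure the spread between these arrays, of which vehicle 4 and treated 3 were near copies and stayed under their labels. Hybridization groups were inferred by clustering the BioB and BioC controls into 3 groups, a number set beforehand, and not taken from the labels. The lists of insulin-regulated genes, the correlations of members with marker lists and the lists without single arrays were chosen after seeing the data. Differences were tested with limma 3.58.1 (R 4.3.3; lmFit, eBayes) on all probe sets, with Benjamini-Hochberg adjustment, and the procedure was tested on simulated data. Correlations used exact permutation of pairings over both groups together (NumPy 2.4.6, SciPy 1.17.1). No detection calls were used. Named genes were all 10 members with every probe set, in other lists those at an unadjusted p under 0.05 or at least the 3 with the smallest p, and the 2 genes most like each member by Pearson r at a mean of at least 6. Jak2, Stat5a, Stat5b, Cish, Igf1r, Cyp2c11 and Bcl6 were added after their values were seen. The members and lists were chosen with earlier results of these data known. Alternatives were normalization, a dim filter at 6, variance models, array weights, blocks, a Gapdh covariate, the mean of a gene's probe sets, and arrays left out.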

Additional observations from a re-analysis of the deposited data

Results flagged for a closer look

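Of 36 groups of 4 arrays (18 member probe sets in 2 groups), 1 had an array far from the others by Dixon's test for 4 values, which flags about 1 group in 20 by chance. Igfbp4 (1371462_at) in treated livers was highest on treated 2, where the gap to the next array made up 0.963 of the range of the group. The values were 9.69, 9.88, 9.70 and 9.69 on treated 1 to 4, so the whole range was small.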

How the results depend on the processing

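Of the 18 member probe sets, 0 passed the adjusted threshold in every alternative run. At an unadjusted p under 0.05 there were 2 with array weights, 1 without both near-identical arrays and 0 to 3 with 1 array left out, 3 without treated 4 (Ghr, Igfbp2 and Igfbp7). Over all probe sets 0 were called, 3 without both near-identical arrays and 0 to 11 with 1 array left out (11 without vehicle 4). The count at an unadjusted p under 0.05, 1220, became 481 with only probe sets of a mean of at least 6 (fewer were tested), 2047 with array weights, 2025 without both near-identical arrays, and 538 to 2885 with 1 array left out. The replicate numbers did not pair the arrays. Same-numbered arrays deviated from their group means with r of −0.11, 0.04, −0.12 and −0.62, and with the replicate number as a block the count was 785, with 0 adjusted calls. The difference turned for Igf1 without vehicle 3 (−0.017, range with 1 array left out to 0.28), Socs2 without treated 3 (−0.0053, range to 0.42) and Igfbp3 without vehicle 1 (0.10) or treated 3 (0.12, range from −0.54), and did not turn for the 7 other members. The dim filter, the variance model and both blocks cannot change a difference, nor can averaging probe sets where a gene has 1. The pathway median was 0.059 with median centring and −0.031 to 0.079 with 1 array left out. The cause of these shifts was not tested. Socs2 had no value under the dim filter. Of 45 member pairs, 0 passed with all 8 arrays as well. Dim probe sets (Socs2, 2 of Igfbp5) limit what could be seen.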
